A study of Saccharomyces cerevisiae BY4741 with 8 samples.

Results

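The 54 genes described here are *GCN4* and 53 genes of amino acid synthesis in budding yeast that are grouped under the transcription factor it encodes. They were taken by systematic ORF name, and all 54 were found, each as 1 spot, among the 6388 genes of the arrays. The rule used gene names and no expression value, but earlier results of these data were known when the list was chosen. The 53 genes cover histidine (7 genes), leucine (4), isoleucine and valine with the branched-chain transaminases (7), lysine (7), tryptophan (5), the aromatic pathway to and from chorismate (6), homoserine and threonine (5), serine (4) and arginine (8).

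Gcn4 is a leucine zipper activator that binds upstream of genes in most amino acid pathways. When a cell runs short of an amino acid, the kinase Gcn2 senses uncharged tRNA and phosphorylates the initiation factor eIF2, which lowers general translation but raises translation of the *GCN4* mRNA through its upstream open reading frames. Much of the control of Gcn4 is therefore at translation and protein turnover, which a transcript array does not measure. Single pathways carry a second layer of control, such as Leu3 for leucine, Lys14 for lysine and the Arg80-Arg81 complex for arginine.

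All cultures were strain BY4741 of *S. cerevisiae*, a *his3Δ1 leu2Δ0 met15Δ0 ura3Δ0* laboratory strain, grown in synthetic complete medium with glucose. This medium supplies amino acids. An early log phase culture was divided, and KP1019, an anticancer ruthenium complex, was added to 1 part while the other grew on without drug for the same 3 h. For each dose, 40 or 80 μg/ml, there were 2 biological replicates, and nothing in the labels says that the doses shared a culture. Each replicate was hybridized to a dye-reversal pair of arrays (A and B), with treated cDNA in Cy5 on one and in Cy3 on the other, which gives 8 arrays. A log2 ratio above 0 means more transcript in treated cells. Values of the 4 arrays of a dose are given below in the order replicate 1 array A, replicate 1 array B, replicate 2 array A, replicate 2 array B, and errors are the SD of the 2 replicate means. These are whole cultures, in which fewer cells that express a gene and less of its RNA per cell cannot be told apart.

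The strain was checked first on the genes it lacks. A spot was called above the blanks where it was brighter than the median blank spot of its array and channel by more than 3 scaled median absolute deviations, a limit chosen after the values were seen. In the untreated channel *URA3* passed it on 1 of 8 arrays and *LEU2* on 5 of 8, with *LEU2* at 0.442 to 2.29 times the limit. *HIS3* was above it on 8 of 8 arrays. The *his3Δ1* allele removes an inner stretch of the gene, and since the position of the probe was not known here, its signal checks nothing. *MET17*, the current name of *MET15*, was at 13.9 to 192 times the limit in the untreated channel of all 8 arrays, which goes against a *met15Δ0* genotype. Whether this spot reads another transcript was not tested. *LEU2*, which is 1 of the 54, is therefore a spot near the blanks in a strain whose stated genotype lacks the gene. Counts are also given without *HIS3* and *LEU2*.

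**Figure D1:**
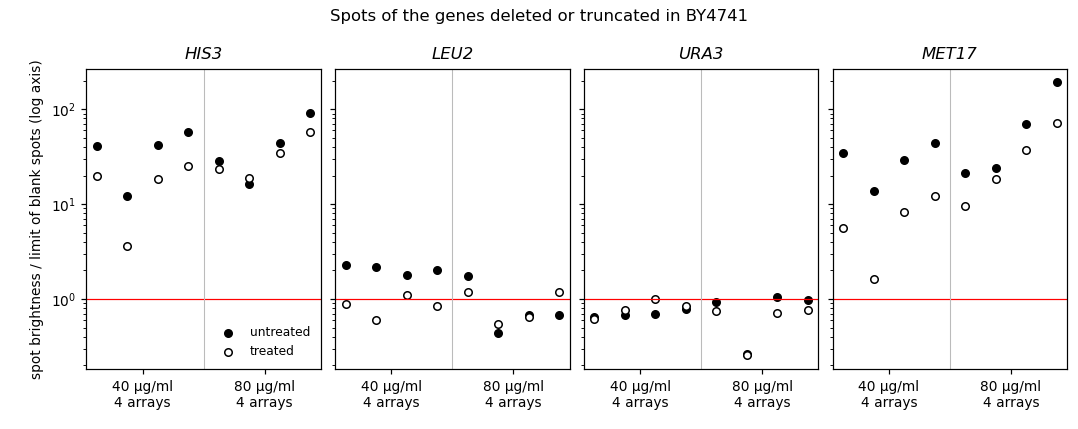
Brightness of the spots of *HIS3*, *LEU2*, *URA3* and *MET17* on the 8 arrays, divided by the limit set from the blank spots of the same array and channel (log axis; the red line marks the limit; filled, untreated; open, treated). *LEU2* and *URA3* lie near the line, with *LEU2* between 0.442 and 2.29 times the limit in untreated cells, and *MET17* lies above the line on all 8 arrays.

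Of the gene spots on an array, 67.5% to 98.5% were above the blanks in the treated channel and 86.4% to 99.2% in the untreated channel. Among the 54 genes, 47 stood above them in both channels of all 8 arrays. The other 7 were *HIS2*, *HIS6*, *LEU2*, *LYS12*, *ARO7*, *ARG3* and *ARG5,6*. The log2 ratios of the 54 genes correlated across genes with r = 0.927, 0.846, 0.576 and 0.863 between the arrays of a dye reversal, in replicates 1 and 2 of 40 μg/ml and replicates 1 and 2 of 80 μg/ml. The scaled median absolute deviation of the log2 ratios of all genes was 0.68 in replicate 1 of 40 μg/ml and 0.32 to 0.39 in the other 3 replicates. The labels do not say whether the arrays of both doses were run together.

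Transcripts of amino acid synthesis were mostly lower after 3 h at 40 μg/ml KP1019. Of the 54 genes, 20 fell and 6 rose (limma, adjusted p under 0.05), while 28 did not pass the test. Over all 6388 genes, 10.3% were called lower and 13.0% higher, against 37.0% and 11.1% of the 54. The share called lower was larger among bright genes. With the test run on 1394 bright genes only, 24.7% were lower and 13.8% higher, beside 9 and 2 of the 25 listed genes among them. The median log2 ratio of the 54 genes was -0.44, and that of all genes was -0.01. It was -0.48 in replicate 1 and -0.34 in replicate 2, and 39 of the 54 means lay below 0. Without *HIS3* and *LEU2*, 19 of 52 genes fell and 6 rose. On 4 of 4 arrays, 29 of the 54 were lower and 12 were higher, where 24.5% and 25.0% of all genes were. The fall was found in the leucine (3 of 4 genes), isoleucine-valine (4 of 7), aromatic (3 of 6), threonine (3 of 5), serine (2 of 4), arginine (2 of 8), lysine (2 of 7) and tryptophan (1 of 5) groups, and no histidine gene fell.

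The count of calls rested in part on replicate 1. With that replicate left out, 16 of the 54 genes were lower and 2 higher at 40 μg/ml, where 7.26% and 9.64% of all genes were. With replicate 2 left out, 27 were lower and 8 higher, where 23.8% and 24.1% of all genes were. Of the 20 genes that fell, 9 passed the test under every setting in which they were tested, namely *LEU1*, *LEU9*, *ILV1*, *ILV2*, *ILV3*, *ARO2*, *HOM2*, *HOM3* and *ARG1*. Of the 6 that rose, only *SER3* did. The direction of all 26 was the same under each of these settings. At 40 μg/ml, fitting each dose alone and leaving out either replicate of 80 μg/ml gave the same calls. They are not separate settings. All genes there shared nearly the same spread. In limma with the doses fitted alone, *HOM2* (-1.49 ± 0.60) had an adjusted p of 1.42e-06 and *ARO2* (-1.47 ± 0.25) 2.02e-06. A call kept or lost in that fit thus follows the size of the mean, not the agreement between the replicates.

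Fewer genes passed the test at 80 μg/ml, among the 54 as among all genes, of which 225 were called at this dose and 1489 at 40 μg/ml. Of the 54, 1 rose (*CPA1*) and 1 fell (*ARG1*), where 2.11% of all genes were called higher and 1.41% lower. The median log2 ratio was -0.21, beside -0.00 for all genes, and 40 of the 54 means lay below 0. On 4 of 4 arrays, 28 were lower and 6 higher, where 22.0% and 22.9% of all genes were. Of the 20 genes that fell at 40 μg/ml, all 20 had a mean below 0 at 80 μg/ml, and 4 of the 6 that rose had a mean above 0. Of all genes called lower or higher at 40 μg/ml, 81.5% and 79.6% had a mean on the same side of 0 at 80 μg/ml. The number of calls at this dose depended on which replicates estimated the spread. With 80 μg/ml fitted alone, or with either replicate of 40 μg/ml left out, 15 of the 54 were lower and 3 higher, where 10.0% and 12.1% of all genes were. Without replicate 1 or without replicate 2 of 80 μg/ml, 0 of the 54 passed in limma, where 1.86% and 1.28% of all genes did, and 5 and 3 of the 54 had an unadjusted p under 0.05 (6.97% and 8.08% of all genes).

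**Figure D2:**
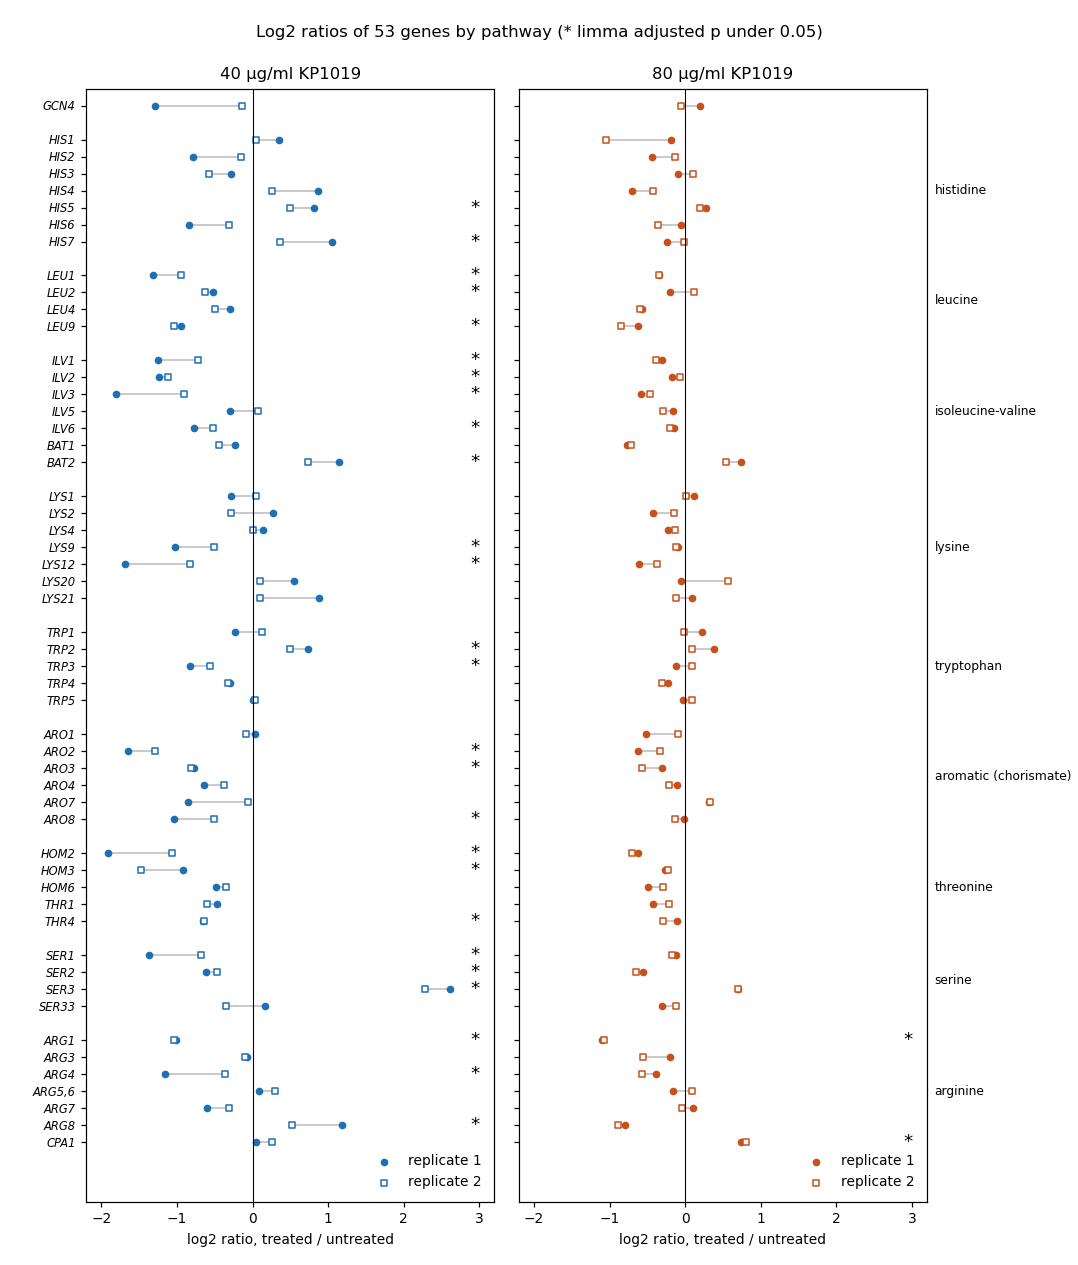
Log2 ratio of treated over untreated cells for 53 of the 54 genes, grouped by pathway, at 40 μg/ml (left) and 80 μg/ml (right). Each point is a biological replicate (the mean of 2 dye-reversal arrays; filled circle, replicate 1; open square, replicate 2), grey lines join the replicates, and asterisks mark an adjusted p under 0.05 in limma. At 40 μg/ml 20 genes are marked as lower and 6 as higher, and at 80 μg/ml 1 gene is marked in each direction.

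**Figure D3:**
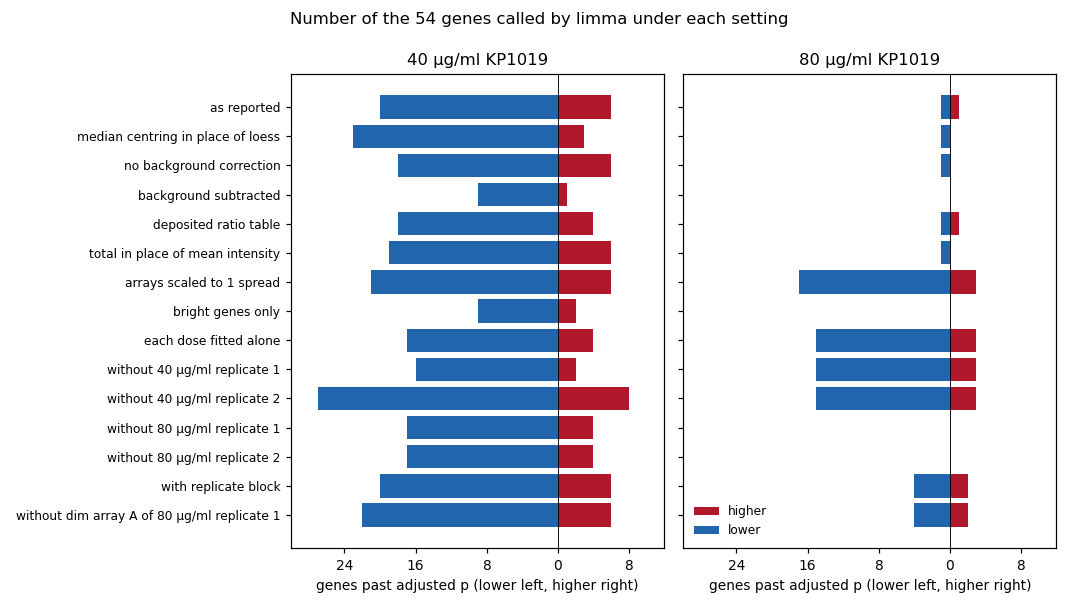
Number of the 54 genes with an adjusted p under 0.05 under each processing setting, lower to the left and higher to the right of 0, at 40 μg/ml (left panel) and 80 μg/ml (right panel). At 40 μg/ml between 9 and 27 genes are called lower, and at 80 μg/ml between 0 and 17.

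The transcript of *GCN4* (YEL009C) itself did not pass the test at either dose. Its log2 ratios at 40 μg/ml were -1.19, -1.38, -0.06 and -0.22. Both arrays of replicate 1 were low, and both of replicate 2 were close to 0. The mean was -0.71 ± 0.81 (adjusted p = 0.0886), with a 95% interval from -1.33 to -0.10 that, like the intervals below, is not adjusted over genes. Which replicate was kept decided the value, since replicate 2 alone gave -0.14 and replicate 1 alone -1.29. With the doses fitted alone the mean of -0.71 passed in limma with an adjusted p of 0.0401. That fit used nearly the same spread for all genes at 40 μg/ml, so the gap between the replicates of *GCN4* hardly entered this value. The higher dose read 0.25, 0.14, -0.09 and -0.04, on both sides of 0, with a mean of 0.07 ± 0.18 (adjusted p = 0.932). The change from 40 to 80 μg/ml, 0.78 with a 95% interval from -0.09 to 1.65, did not pass either (adjusted p = 0.276).

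Serine synthesis held the largest rise among the 54 genes. *SER3* (YER081W) encodes 3-phosphoglycerate dehydrogenase, the enzyme of the committed step, and is known to be kept low in medium that contains serine. On the arrays of 40 μg/ml its log2 ratios were 3.61, 1.61, 1.71 and 2.86. All 4 were above 1.5 and both arrays with treated cDNA in Cy5 were higher than both with treated cDNA in Cy3. Its mean of 2.45 ± 0.23 corresponds to 5.45-fold more transcript in treated cells (adjusted p = 0.000485). The study's own criteria ask for a 3.5-fold change and a difference between the paired arrays of at most 50%, with a further limit on relative fold change. Only the fold and difference criteria were applied here, to ratios computed anew, so what follows is not the study's own outcome. *SER3* differed by 120% and 75.9% between its paired arrays and did not meet them, and none of the other 53 genes did at either dose (0.219% of all genes were induced and 0.157% repressed by these criteria at 40 μg/ml, and 0.0783% and 0.157% at 80 μg/ml). The 4 arrays of 80 μg/ml were alike, with 0.59, 0.80, 0.66 and 0.74 and a mean of 0.70 ± 0.01 (adjusted p = 0.0669). *SER33* (YIL074C) is the paralogue of *SER3* and encodes the same activity. The lower dose gave -0.09 ± 0.36 and the higher -0.21 ± 0.13, neither past the test. In the 4 replicates *SER3* exceeded *SER33* by 2.45, 2.63, 1.00 and 0.82 on the log2 scale, a description for which no test was made. The later enzymes went the other way. *SER1* (YOR184W), the phosphoserine aminotransferase, fell 2.03-fold at 40 μg/ml (-1.02 ± 0.49, adjusted p = 0.0148), and *SER2* (YGR208W), the phosphatase of the last step, fell 1.46-fold (-0.54 ± 0.11, adjusted p = 0.0464). The call of *SER2* was lost without replicate 1 of 40 μg/ml and with the replicate number as a block (adjusted p = 0.0613). It was also lost with the doses fitted alone (0.139), where calls follow the size of the mean. With 80 μg/ml *SER1* read -0.15 and *SER2* -0.60 (adjusted p = 0.775 and 0.0902).

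**Figure D4:**
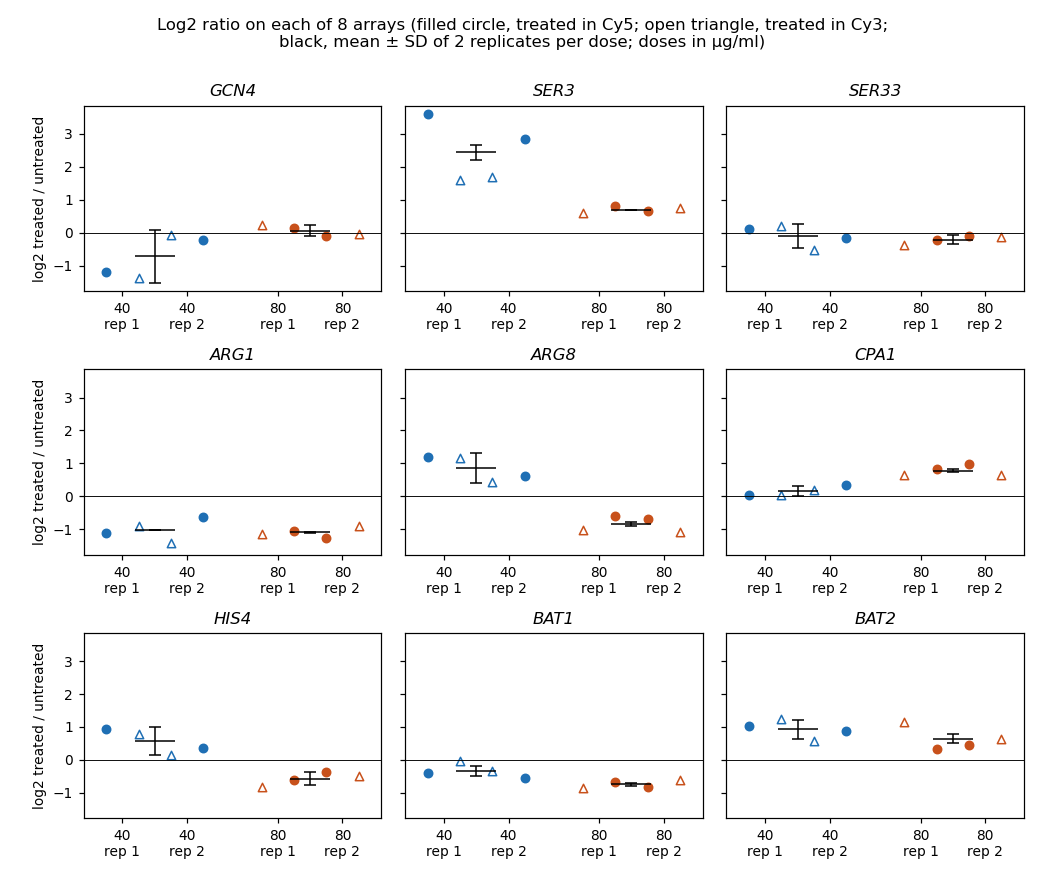
Log2 ratio of treated over untreated cells on each of the 8 arrays for 9 genes (blue, 40 μg/ml; orange, 80 μg/ml; filled circles, treated cDNA in Cy5; open triangles, treated cDNA in Cy3), with the mean ± SD of the 2 replicates of a dose in black. *SER3* reaches 3.61 at 40 μg/ml while *SER33* stays near 0, *ARG1* lies near -1 at both doses, and *ARG8* and *HIS4* lie above 0 at 40 μg/ml and below 0 at 80 μg/ml.

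In the aspartate branch, all 5 homoserine and threonine genes had means below 0 at both doses, and 3 of them fell at 40 μg/ml (10.3% of all genes). *HOM2* (YDR158W) encodes aspartate semialdehyde dehydrogenase, the second enzyme of the branch. Its 40 μg/ml arrays read -1.77, -2.05, -1.01 and -1.12, and the mean of -1.49 ± 0.60 was the lowest of the 54 (2.80-fold lower, adjusted p = 0.0073). *HOM3* (YER052C), the aspartate kinase that opens the branch, read -0.97, -0.87, -2.19 and -0.76. Array A of replicate 2 lay apart from the other 3 arrays, and the mean was -1.20 ± 0.39 (2.29-fold lower, adjusted p = 0.00814). *THR4* (YCR053W), threonine synthase, fell 1.57-fold (-0.65 ± 0.01, adjusted p = 0.0286). Its adjusted p was 0.0671 with the doses fitted alone, where the closeness of its replicates hardly counted. The homoserine dehydrogenase *HOM6* (YJR139C) and the homoserine kinase *THR1* (YHR025W) had means of -0.42 and -0.54 that did not pass (adjusted p = 0.100 and 0.0517). The 5 means at 80 μg/ml ran from -0.66 (*HOM2*) to -0.20 (*THR4*), none past the test.

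Of the 11 genes of branched-chain synthesis, 7 fell at 40 μg/ml, from the shared enzymes to the leucine branch, and 1 rose (10.3% and 13.0% of all genes). Without the near-blank spot of *LEU2* 6 of 10 fell, and 2 of 3 in the leucine group. *ILV1* (YER086W), threonine deaminase, makes the precursor of isoleucine and fell 1.98-fold at 40 μg/ml (-0.99 ± 0.38, adjusted p = 0.0134). *ILV2* (YMR108W) and *ILV6* (YCL009C) encode the catalytic and the regulatory subunit of acetolactate synthase. *ILV2* read -1.22, -1.25, -0.98 and -1.25, all 4 arrays close together, with a mean of -1.18 ± 0.08 (2.26-fold lower, adjusted p = 0.00615). *ILV6* fell 1.56-fold (-0.64 ± 0.18, adjusted p = 0.0304), and this call was lost without replicate 1 of 40 μg/ml. It was also lost with the doses fitted alone (adjusted p = 0.0687), where calls follow the size of the mean. The next enzyme, the reductoisomerase *ILV5* (YLR355C), had a mean of -0.11 ± 0.26 (adjusted p = 0.669). *ILV3* (YJR016C), the dihydroxyacid dehydratase, read -1.65, -1.98, -0.94 and -0.86. Both arrays of replicate 1 were lower than both of replicate 2, and its mean of -1.36 ± 0.64 was a 2.56-fold decrease (adjusted p = 0.010). With 80 μg/ml *ILV2* was at -0.12 ± 0.08 and *ILV3* at -0.52 ± 0.08, and none of the 7 genes of this group passed.

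The last step of branched-chain synthesis is shared by a mitochondrial transaminase, Bat1, and a cytosolic one, Bat2. *BAT2* (YJR148W) was higher on all 8 arrays, with 1.04, 1.25, 0.59 and 0.88 at 40 μg/ml (mean 0.94 ± 0.29, 1.91-fold higher, adjusted p = 0.0138) and 1.16, 0.32, 0.46 and 0.63 at 80 μg/ml (mean 0.64 ± 0.14, adjusted p = 0.100). *BAT1* (YHR208W) was lower on all 8 arrays, with means of -0.33 ± 0.15 and -0.74 ± 0.04 (adjusted p = 0.173 and 0.0535). The paralogues thus lay on opposite sides of 0 in each replicate. The log2 ratio of *BAT1* minus that of *BAT2* was -1.37, -1.17, -1.51 and -1.26 in the 4 replicates, with no test of the pair.

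In the leucine branch, *LEU4* (YNL104C) and *LEU9* (YOR108W) encode the isopropylmalate synthases of the first step. *LEU9* read -1.06, -0.82, -1.02 and -1.05 at 40 μg/ml, with a mean of -0.99 ± 0.07 (1.99-fold lower, adjusted p = 0.00957), and -0.74 ± 0.16 at 80 μg/ml (adjusted p = 0.0562). *LEU4* had means of -0.39 ± 0.14 and -0.58 ± 0.02 (adjusted p = 0.115 and 0.100), with all 8 arrays below 0. *LEU1* (YGL009C), the isopropylmalate isomerase, read -1.37, -1.27, -0.74 and -1.14 at 40 μg/ml. These 4 arrays gave a mean of -1.13 ± 0.27, a 2.19-fold decrease (adjusted p = 0.00773), and 80 μg/ml gave -0.35 (adjusted p = 0.334). The call of *LEU2* (YCL018W) (-0.57 ± 0.08, adjusted p = 0.0464, and 0.115 with the doses fitted alone) came from the near-blank spot described above. At 40 μg/ml its treated channel was above the blanks on 1 of 4 arrays and its untreated channel on 4 of 4.

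Aromatic synthesis runs from erythrose phosphate and phosphoenolpyruvate to chorismate and divides there. The entry step is catalysed by the DAHP synthases Aro3 and Aro4, which phenylalanine and tyrosine inhibit, respectively. *ARO3* (YDR035W) fell 1.74-fold at 40 μg/ml, with both replicates close together (-0.80 ± 0.02, adjusted p = 0.0164), and *ARO4* (YBR249C) had a mean of -0.50 ± 0.19 (adjusted p = 0.0631). *ARO1* (YDR127W) encodes the multifunctional enzyme of the middle steps and was at -0.03 ± 0.09 (adjusted p = 0.934). *ARO2* (YGL148W), chorismate synthase, read -1.57, -1.72, -1.12 and -1.47 at 40 μg/ml. All 4 arrays were below -1, with a mean of -1.47 ± 0.25 (2.77-fold lower, adjusted p = 0.0045), and at 80 μg/ml the mean was -0.48 ± 0.21 (adjusted p = 0.206). Beyond chorismate, the aminotransferase *ARO8* (YGL202W) fell 1.71-fold (-0.78 ± 0.37, adjusted p = 0.0253, but 0.0718 without replicate 1 of 40 μg/ml). The chorismate mutase *ARO7* (YPR060C) read -0.46 ± 0.57 at the lower dose and 0.32 ± 0.01 at the higher, neither past the test (adjusted p = 0.158 and 0.493).

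In the tryptophan branch the subunits of 1 enzyme went in opposite directions. *TRP2* (YER090W) and *TRP3* (YKL211C) together form anthranilate synthase, and *TRP3* carries a later activity of the pathway as well. *TRP2* read 0.69, 0.78, 0.32 and 0.67 at 40 μg/ml (mean 0.62 ± 0.17, 1.53-fold higher, adjusted p = 0.0391), and *TRP3* read -0.82, -0.83, -0.43 and -0.70 (mean -0.69 ± 0.19, 1.62-fold lower, adjusted p = 0.0266). The 4 arrays of each gene lay on 1 side of 0. Neither call held without replicate 1 of 40 μg/ml. That of *TRP2* was also lost with the doses fitted alone (adjusted p = 0.0849), where calls follow the size of the mean. Under 80 μg/ml the means were 0.23 and -0.02. *TRP1* (YDR007W), *TRP4* (YDR354W) and *TRP5* (YGL026C) ranged from -0.31 to 0.02 at 40 μg/ml, and none passed.

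Lysine synthesis in yeast starts from 2-oxoglutarate through homocitrate, and the 7 genes divided. *LYS12* (YIL094C), homoisocitrate dehydrogenase, read -1.92, -1.45, -0.52 and -1.13 at 40 μg/ml, lower on both arrays of replicate 1 than on those of replicate 2. Its mean was -1.26 ± 0.61 (2.39-fold lower, adjusted p = 0.0117), and its treated spot was above the blanks on 3 of 4 arrays. *LYS9* (YNR050C), which forms saccharopine, fell 1.70-fold (-0.77 ± 0.36, adjusted p = 0.0248, but 0.0687 without replicate 1 of 40 μg/ml). The homocitrate synthases *LYS20* (YDL182W) and *LYS21* (YDL131W) had means above 0 at 40 μg/ml, 0.32 ± 0.31 and 0.49 ± 0.56, which did not pass (adjusted p = 0.297 and 0.140). The homoaconitase *LYS4* (YDR234W), the aminoadipate reductase *LYS2* (YBR115C) and the saccharopine dehydrogenase of the last step, *LYS1* (YIR034C), lay between -0.12 and 0.07. None of the 7 passed at 80 μg/ml, and their means ran from -0.49 (*LYS12*) to 0.26 (*LYS20*).

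With both doses fitted together, *ARG1* of arginine synthesis was the only 1 of the 54 genes that passed the test at both. With each dose fitted alone, genes of other groups passed at both doses too. Among them were *LEU9*, *HOM2* and *SER3* (adjusted p = 0.00126, 0.00224 and 0.00152 at 80 μg/ml). *ARG1* (YOL058W) encodes argininosuccinate synthetase. At 40 μg/ml it read -1.12, -0.92, -1.43 and -0.64, and at 80 μg/ml -1.15, -1.05, -1.26 and -0.90. All 8 arrays were low to a like extent, with means of -1.02 ± 0.01 (2.03-fold lower, adjusted p = 0.0079) and -1.09 ± 0.01 (2.13-fold lower, adjusted p = 0.0109). The difference between the doses was -0.06, with a 95% interval from -0.58 to 0.46. Without either replicate of 80 μg/ml the call at that dose was lost, with an adjusted p of 0.156 or 0.153. *ARG4* (YHR018C), the lyase that releases arginine in the next step, fell 1.70-fold at 40 μg/ml (-0.76 ± 0.56, adjusted p = 0.0405). Its replicates differed, at -1.16 and -0.37, and the call was lost without replicate 1 (adjusted p = 0.200).

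Values of the genes upstream of *ARG1* were different. *ARG8* (YOL140W), acetylornithine aminotransferase, read 1.19, 1.17, 0.43 and 0.62 at 40 μg/ml and -1.01, -0.60, -0.69 and -1.09 at 80 μg/ml. The 4 arrays of 1 dose did not overlap with those of the other and lay on the other side of 0. It was called higher at 40 μg/ml (0.85 ± 0.46, 1.81-fold, adjusted p = 0.0227). At 80 μg/ml it was not called (-0.85 ± 0.06, adjusted p = 0.0617). With 80 μg/ml fitted alone it was called lower at that dose (adjusted p = 0.000341). *CPA1* (YOR303W) encodes a subunit of the carbamoyl phosphate synthase of arginine synthesis. Its arrays read 0.66, 0.82, 0.98 and 0.64 at 80 μg/ml, a 1.71-fold rise (0.77 ± 0.05, adjusted p = 0.0468), and 0.15 ± 0.16 at 40 μg/ml. This call was lost under 8 of the 14 settings in which it was tested, among them without replicate 1 or without replicate 2 of 80 μg/ml. Not all settings that kept it were separate. Fitting 80 μg/ml alone and leaving out either replicate of 40 μg/ml gave the same calls at 80 μg/ml. *ARG5,6* (YER069W) and *ARG7* (YMR062C) of the ornithine steps and *ARG3* (YJL088W), ornithine carbamoyltransferase, had means between -0.46 and 0.19 at 40 μg/ml and between -0.38 and 0.03 at 80 μg/ml, none past the test.

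Histidine was the group with no gene called lower when both doses were fitted together. With 80 μg/ml fitted alone, *HIS1* and *HIS4* were called lower at that dose (adjusted p = 0.0199 and 0.00765 in limma). *HIS7* (YBR248C), which makes the imidazole ring, read 1.03, 1.07, 0.51 and 0.22 at 40 μg/ml (mean 0.70 ± 0.48, 1.63-fold higher, adjusted p = 0.0437). *HIS5* (YIL116W), the histidinol-phosphate aminotransferase, read 0.88, 0.76, 0.59 and 0.41 (mean 0.66 ± 0.23, 1.58-fold higher, adjusted p = 0.0304). All arrays were above 0 for both genes, and both calls were lost without replicate 1 of 40 μg/ml. That of *HIS5* was also lost with the doses fitted alone (adjusted p = 0.0608), where calls follow the size of the mean. *HIS4* (YCL030C) encodes a protein with 3 activities of the pathway. It read 0.94, 0.80, 0.15 and 0.37 at 40 μg/ml and -0.82, -0.60, -0.37 and -0.48 at 80 μg/ml, on opposite sides of 0. Neither mean passed, at 0.57 ± 0.43 and -0.57 ± 0.20 (adjusted p = 0.0774 and 0.183). *HIS1* (YER055C), the enzyme of the first step, had means of 0.20 ± 0.22 and -0.62 ± 0.61 that did not pass, and *HIS2* (YFR025C), *HIS3* (YOR202W) and *HIS6* (YIL020C) had means of -0.47, -0.43 and -0.57 at 40 μg/ml.

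The doses were then compared directly. None of the 54 genes differed between 80 and 40 μg/ml at an adjusted p under 0.05, where 9 of all genes did (0.141%). At an unadjusted p under 0.05 there were 19, against 20.9% of all genes. In 14 of them 80 μg/ml was above 40 μg/ml (9.82% of all genes), and in 5 below (11.1% of all genes). The 14 were *CPA1*, *ARO7* and 12 of the 20 genes that fell at 40 μg/ml, whose low values at 40 μg/ml enter this difference too. The 5 were *SER3*, *ARG8*, *HIS4*, *HIS7* and *HIS1*. The lowest adjusted p was that of *SER3*, with a difference of -1.75 (95% interval from -2.30 to -1.20, adjusted p = 0.0643), followed by *ARG8* with -1.70 (from -2.35 to -1.05, adjusted p = 0.0873). For *HIS4* the difference was -1.13 (from -1.79 to -0.48, adjusted p = 0.136), and for *ILV2*, which had a mean nearer 0 at 80 μg/ml, 1.05 (from 0.52 to 1.58, adjusted p = 0.117). Of the 26 genes called at 40 μg/ml, 24 (92.3%) had a mean nearer to 0 at 80 μg/ml, with *ARG1* and *SER2* as the exceptions, and this share was 92.5% among all genes called at 40 μg/ml. The number that passed was 24 without replicate 2 of 40 μg/ml, where 36.6% of all genes passed. It was 4, 2 and 1 without replicate 1 of 40 μg/ml and replicates 1 and 2 of 80 μg/ml, where 4.01%, 0.657% and 0.454% of all genes did.

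**Figure D5:**
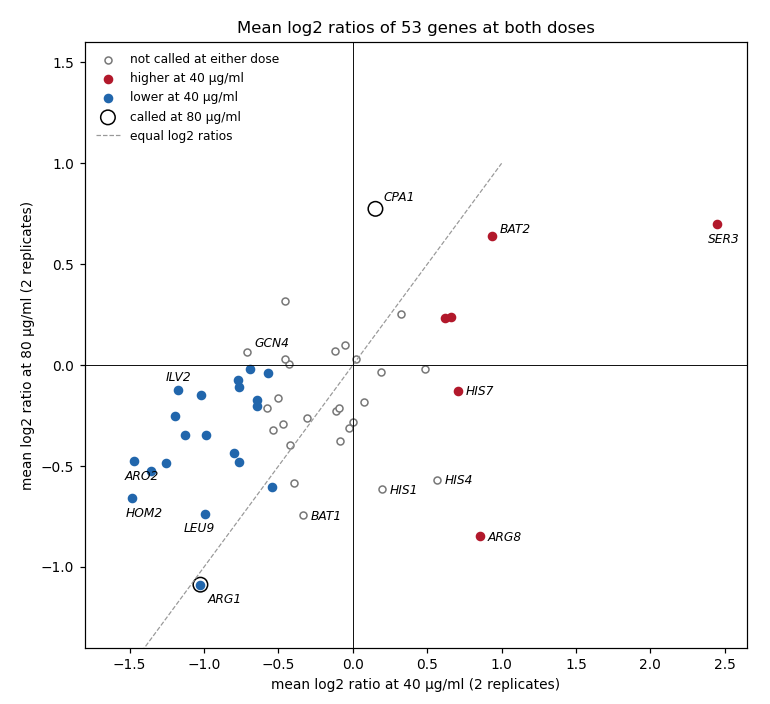
Mean log2 ratio of 53 of the 54 genes at 80 μg/ml against that at 40 μg/ml (2 replicates each; red, called higher at 40 μg/ml; blue, called lower at 40 μg/ml; rings, called at 80 μg/ml; dashed line, equal ratios). The genes called lower at 40 μg/ml lie to the left and above the line except *ARG1* and *SER2*, and *ARG8*, *HIS4*, *HIS1* and *HIS7* lie below 0 at 80 μg/ml and above 0 at 40 μg/ml.

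Genes around these pathways were read from 3 further lists. Of 21 genes of general control and pathway regulation, 4 fell and 1 rose at 40 μg/ml (10.3% and 13.0% of all genes), and the median log2 ratio was -0.18. *SUI2* (YJR007W), *GCD11* (YER025W) and *SUI3* (YPL237W) encode the subunits of eIF2, and Sui2 is the subunit that Gcn2 phosphorylates. Their means were -1.28 ± 0.48, -1.15 ± 0.63 and -0.97 ± 0.56 (adjusted p = 0.00815, 0.016 and 0.0191). *PCL5* (YHR071W) encodes the cyclin that directs the kinase Pho85 to Gcn4 for its degradation and is itself known as a Gcn4 target. It fell 1.92-fold (-0.94 ± 0.02, adjusted p = 0.00979). At 80 μg/ml its mean was above 0, at 0.30 ± 0.03, and did not pass (adjusted p = 0.371). The difference between the doses was 1.24, with a 95% interval from 0.72 to 1.76 (adjusted p = 0.0949). *LEU3* (YLR451W), the activator of the leucine genes, rose 1.69-fold (0.75 ± 0.14, adjusted p = 0.0222), and the kinase gene *GCN2* (YDR283C) was at 0.16 ± 0.02 (adjusted p = 0.489).

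Of 20 other genes of amino acid synthesis, 8 fell and 2 rose at 40 μg/ml (10.3% and 13.0% of all genes), with a median of -0.22. Among those that fell were the glutamine synthetase gene *GLN1* (YPR035W) (-1.48 ± 0.54, 2.78-fold lower, adjusted p = 0.00666) and the proline genes *PRO1* (YDR300C), *PRO2* (YOR323C) and *PRO3* (YER023W) (-0.79, -0.89 and -0.90). The 3 proline calls were lost without replicate 1 of 40 μg/ml (adjusted p = 0.0628, 0.190 and 0.0769). *LYS5* (YGL154C), which activates the aminoadipate reductase, and *GLT1* (YDL171C), glutamate synthase, rose (0.90 ± 0.24 and 0.68 ± 0.18, adjusted p = 0.0138 and 0.027). The call of *GLT1* was lost without replicate 1 of 40 μg/ml. It was also lost with the doses fitted alone (adjusted p = 0.0525), where calls follow the size of the mean. Of 15 amino acid permease genes, 6 fell and 1 rose at the same dose (10.3% and 13.0% of all genes), with a median of -0.45. The acidic amino acid permease *DIP5* (YPL265W) fell 2.40-fold (-1.26 ± 0.01, adjusted p = 0.00674) and the broad-range permease *AGP1* (YCL025C) 2.09-fold (-1.06 ± 0.30, adjusted p = 0.0105). The general permease *GAP1* (YKR039W) fell 1.53-fold (-0.61 ± 0.02, adjusted p = 0.0329). Its adjusted p was 0.0887 with the doses fitted alone, where calls follow the size of the mean. *ALP1* (YNL270C), an arginine transporter, rose 1.82-fold (0.87 ± 0.01, adjusted p = 0.0122). With limma, 0 of the 56 genes of the 3 lists passed at 80 μg/ml, where 2, 3 and 5 genes of the lists had an unadjusted p under 0.05 (18.5% of all genes). At this dose 0 met the fold and difference criteria of the study as applied here.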

How the data were processed

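Transcript levels of treated and untreated BY4741 cells were measured on 8 spotted 2-colour arrays. The authors quantified the images in MagicTool 2.1, per the labels, and deposited unnormalized foreground and background intensity of both channels for the 6688 features of an array. They also deposited a table that holds the signed fold change, a ratio of red over green, for each array (6377 genes used). Its normalization method, and with it the centring of its values, is not given in the sources used here. The median log2 ratio of its columns was -0.21 to 0.11, and across genes it correlated with the ratios computed here with r from 0.864 to 0.972.

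Mean intensities were corrected with normexp (offset 50) and normalized by loess within each array in limma 3.58.1 (R 4.3.3), with 85 blank and 23 control spots at weight 0. Where treated cDNA carried Cy3 the sign of the ratio was reversed, and the dye-reversal arrays were averaged to 4 replicate values for each of 6388 genes. For each dose the mean log2 ratio was set against 0, and 80 was set against 40 μg/ml, by two-sided moderated tests in limma (lmFit, then eBayes). Benjamini-Hochberg adjustment ran over the 6388 genes, with calls at an adjusted p under 0.05. The spread was estimated once from the replicates of both doses (2 residual and 5.66 prior degrees of freedom). The number of arrays limits the precision, and the p-values of this joint fit measure the spread between replicates that the labels call biological, with no further account of their origin. With 40 μg/ml fitted alone, the spread used was nearly the same for all genes. Other backgrounds, normalizations, filters and sets of replicates were tried.

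The 54 genes, the 3 further lists and the tests were chosen with earlier results of these data known. Values are given for *GCN4*, *HIS3* and *LEU2*, for genes past the adjusted p at either dose, for the 5 highest and 5 lowest means of each dose and for 5 paralogue pairs, and the remaining genes are named after their values were seen. From each further list up to 8 genes past the test qualified, and *GCN2* was added after its value was seen. One of the 54 genes is counted but not reported by name here. All 54 ORF names matched the RefSeq gene table, which was used for names only. Calculations were tested on simulated data. Promoter, protein and probe sequences were not analysed here, so cross-hybridization between paralogues was not tested. Every file column belonged to a sample.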

Additional observations from a re-analysis of the deposited data

Results flagged for a closer look

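Within each dose, the 4 arrays of each of the 54 genes were searched for 1 array that stood apart (Dixon's test, gap over range above the 95% critical value). Of 108 sets of 4 arrays, 6 held such an array, and chance marks about 1 in 20. *LEU9* read -0.82 on array B of replicate 1 of 40 μg/ml, with the other 3 arrays between -1.06 and -1.02. *ILV2* read -0.98 on array A of replicate 2 of 40 μg/ml, with the others between -1.25 and -1.22. Both of these genes were lower on all 4 arrays, so that the array apart was still below 0. *HOM3* read -2.19 on array A of replicate 2 of 40 μg/ml, beside -0.97 to -0.76 on the others. *ARG7* read 0.0079 on array B of replicate 2 of 40 μg/ml, beside -0.63 to -0.58. At 80 μg/ml, 2 of the 6 fell on array A of replicate 1. There *LYS20* read -0.65 beside 0.50 to 0.63, and *THR4* read 0.040 beside -0.30 to -0.25. That array had the dimmest untreated channel of the 8, with a median foreground intensity of 499, and its part in these values was not tested.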

How the results depend on the processing

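At 40 μg/ml all 26 called genes kept their direction under every setting in which they were tested. With intensities after plain background subtraction (53 of the genes tested) 1 was higher and 9 were lower (4.16% and 2.39% of all genes), and among bright genes only (25 tested) 2 and 9 (13.8% and 24.7% of all bright genes, whose median was -0.19). With median centring in place of loess 3 were higher (13.6% of all genes), the median of the 54 was -0.58 and *GCN4* at -0.87 passed (adjusted p = 0.0359). With each dose fitted alone *GCN4* at -0.71 passed (0.0401), in a fit where the gap between its replicates hardly counted. Across the settings that leave out 1 replicate, the genes called higher at 40 μg/ml were 2 to 8 and lower 16 to 27. At 80 μg/ml these were 0 to 3 and 0 to 15, and genes differing between the doses 1 to 24. The median ran from -0.48 to -0.34 at 40 μg/ml and from -0.21 to -0.16 at the higher dose, and *GCN4* from -1.29 to -0.14 and from -0.060 to 0.19. A dose left with 1 replicate was assumed to vary like the other. At 80 μg/ml 0 genes were higher under median centring, without background correction, with total intensity, after background subtraction and among bright genes. Under these settings 0.488% to 2.87% of all genes tested were higher. After background subtraction and among bright genes 0 were lower as well, where 0.404% and 2.65% of all genes tested were. With arrays scaled to 1 spread 3 were higher, 17 lower and 5 differed between doses (12.3%, 10.8% and 9.35% of all genes), with a median of -0.26. With each dose fitted alone 3 were higher and 15 lower. Without the dim array A of replicate 1 of 80 μg/ml, left out after its values were seen, 2 were higher and 4 lower (3.10% and 2.02% of all genes), and the median was -0.16.

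Replicate numbers are shared between the doses, but the labels do not say that they mark a shared culture, and the deviations of replicate 1 from its dose mean correlated across all genes with r = -0.14 between doses. With the replicate number as a block, 6 genes were higher and 20 lower at 40 μg/ml (15.4% and 12.4% of all genes), 2 and 4 were at the higher dose (4.41% and 2.93%), and 5 differed between doses (6.89%). Of the 20, 19 were also called without the block. *SER2* was lost (adjusted p = 0.0613), and *GCN4* at -0.71 passed (adjusted p = 0.0157). With the numbers crossed, a pairing added after the data were seen, the calls were 7 higher and 24 lower for the lower dose (17.7% and 15.6% of all genes), 3 and 8 for the higher (6.42% and 4.57%), and 11 for the difference (13.0%).

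Values near 0 that were not called changed sign. For 80 μg/ml, leaving out either of its replicates gave -0.060 to 0.19 for *GCN4*, -0.099 to 0.11 for *HIS3*, -0.20 to 0.12 for *LEU2*, -0.057 to 0.57 for *LYS20*, -0.13 to 0.091 for *LYS21* and -0.12 to 0.084 for *TRP3*. In the same way *SER33* ran from -0.35 to 0.16 at 40 μg/ml. *HIS3* was -0.025 under median centring and -0.0014 after background subtraction. *LEU2* was 0.38 without background correction, 0.41 in the deposited table, 0.018 with scaled arrays and 0.18 without the dim array. *TRP3* was 0.021 in the deposited table, 0.012 with total intensity and 0.017 without the dim array, which put *TRP2* at -0.075. *HIS1* at 40 μg/ml was -0.018 under median centring. The difference of *ARG1* between doses was 0.14 under median centring, 0.037 after background subtraction and 0.12 in the deposited table. The cause of these changes was not tested. Of the other values for single genes, 1294 kept direction and call, 101 lost a call and 114 gained one.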
